A study of Mus musculus with 6 samples.

Results

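A set of 36 genes of hepatic stellate cells and of the extracellular matrix was followed in the livers of F1 males sired by fathers that drank inorganic arsenic (iAs). The genes were given by symbol, namely 12 markers of stellate cells, 5 genes of stellate cell activation and 19 genes of the matrix and its turnover. All 36 were among the 16727 genes of the RNA-seq tables that stood on a single line. The 3 iAsF1-M mice had fathers given 250 ppb iAs as sodium arsenite in drinking water for 6 weeks after weaning, and the 3 conF1-M mice had fathers given normal water. Both groups were wild-type males of the C57BL/6 background, drank normal water, ate normal chow and had unexposed mothers, and their livers were taken in the late afternoon after 7 h of refeeding. The age of these mice and the father and litter of each liver are not given in the sources used here, so the tests treat each liver as independent. Expression is given as FPKM, fragments scaled by the length of the gene and the size of the library, so that levels can be set side by side between genes. The genes listed at 0 numbered 1960 to 2174 in iAsF1-M livers and 1190 to 2230 in conF1-M livers. The question was whether the levels of these genes differed between iAsF1-M and conF1-M livers.

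Hepatic stellate cells lie between hepatocytes and the sinusoidal endothelium and store retinyl esters, the liver's reserve of vitamin A. After injury they can turn into contractile myofibroblasts that secrete fibrillar collagen, a change driven by TGF-β and PDGF and known as activation. The matrix of a healthy liver is thin and made of basement membrane collagen, fibronectin and small proteoglycans, and its amount is set by synthesis, cross-linking by lysyl oxidase, cleavage by matrix metalloproteinases and restraint of these by TIMPs. In RNA of whole liver, fewer cells of a type and less RNA per cell cannot be told apart.

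Across the 36 genes, the group mean was lower in iAsF1-M livers for 30 and higher for 6 (Pdgfra, Timp1, Fbln5, Col4a1, Col4a2 and Fn1), and no gene passed the test. The test was limma on log2(FPKM + 1) over the 9695 genes that reached 1 FPKM on average across the 6 livers, which included 22 of the 36 (8 stellate cell markers, 1 activation gene and 13 matrix genes). At an adjusted p of 0.05, 0 of the 22 were called, against 6 of all genes tested (0.0619%), 4 of them lower (0.0413%) and 2 higher (0.0206%) in iAsF1-M livers. At an unadjusted limma p of 0.05, 4 of the 22 were lower in iAsF1-M livers (Sparc, Lum, Tgfb1 and Lrat), where the share of all genes tested was 6.75%, and 0 were higher, where that share was 1.42%. The log2 fold change, iAsF1-M over conF1-M, was below 0 for 19 of the 22, and it was below 0 for 69.6% of all genes tested. In 7 of the 22, all iAsF1-M livers lay below all conF1-M livers (Lrat, Hand2, Colec10, Colec11, Tgfb1, Lum and Sparc), and this held for 11.8% of all genes tested. None of the 22 had all iAsF1-M livers above all conF1-M livers, which 2.37% of all genes tested had. The median log2 fold change of the 22 was -0.20, and that of all genes tested was -0.07. After TMM-like scaling between livers, 19 of the 22 and 51.0% of all genes tested were below 0, with medians of -0.14 and -0.0026. The counts without overlap were not repeated after scaling. In Lrat, Hand2, Colec10, Colec11 and Tgfb1 the lowest conF1-M liver was conF1-M 1, just above the highest iAsF1-M liver. For Hand2, conF1-M 1 had 3.28 FPKM and iAsF1-M 3 had 3.23 FPKM. Over all genes tested, the median difference of log2(FPKM + 1) from the 6-liver mean was 0.06 in conF1-M 1. It was -0.01 in both iAsF1-M 2 and iAsF1-M 3.

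**Figure D1:**
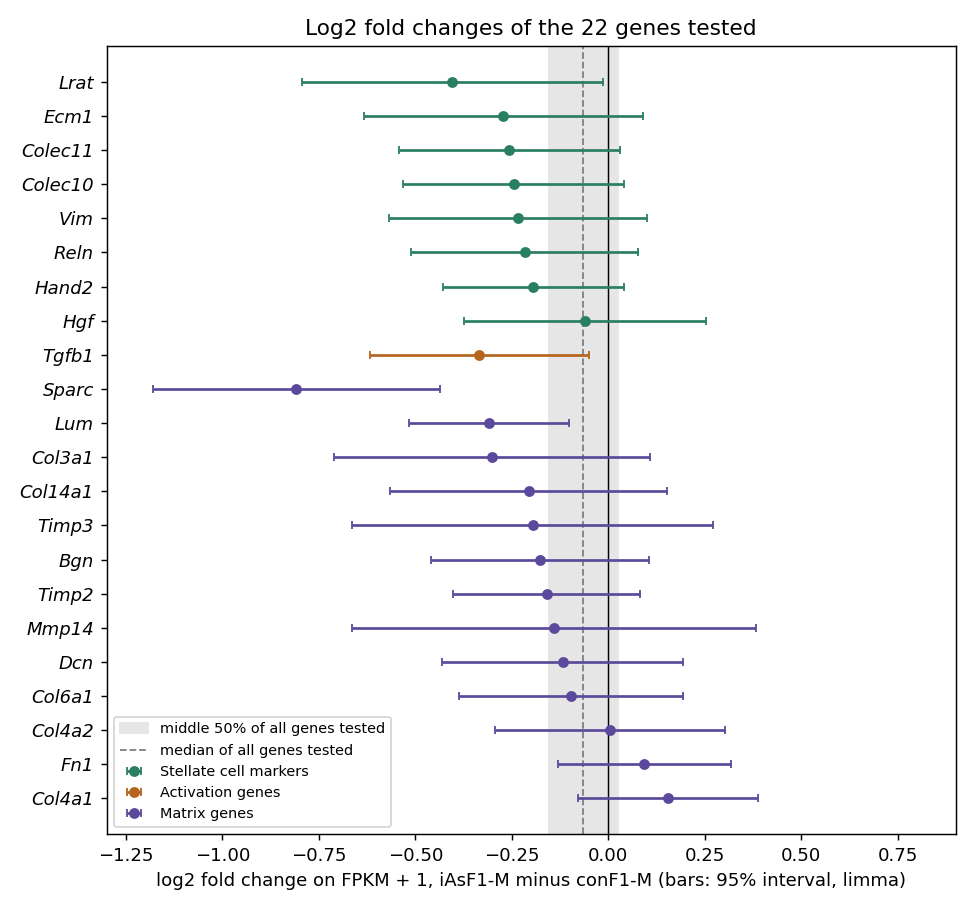
Log2 fold changes of the 22 genes tested, on the scale of FPKM + 1 and as iAsF1-M minus conF1-M, with 95% intervals from limma. Points are coloured by group, the dashed line is the median of all genes tested (-0.07) and the grey band holds the middle of their distribution (-0.15 to 0.02). The intervals of Sparc, Lum, Tgfb1 and Lrat lie below 0 and those of the other 18 genes cross it.

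The 12 stellate cell markers were detected in every liver, and all 8 that were tested had a log2 fold change below 0, with a median of -0.24. Lrat (ENSMUSG00000028003), which makes the retinyl esters that stellate cells store, had the fold change farthest from 0 among them. Its levels were 2.07, 1.22 and 2.42 FPKM in iAsF1-M livers, against 2.52, 3.28 and 2.59 FPKM in conF1-M livers. The groups did not overlap, but the highest iAsF1-M liver was close to the lowest conF1-M liver. The log2 fold change of Lrat was -0.40 ± 0.17 (SE), with an adjusted limma p of 0.61. Lrat lies on the minus strand of chromosome 3 of GRCm38 (82892579 to 82903973).

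Colec10 and Colec11, soluble collectins of innate immunity that stellate cells express in mouse liver, gave a like pattern. Colec11 had 12.5, 13.0 and 13.5 FPKM in iAsF1-M livers, against 14.2, 19.2 and 14.3 FPKM in conF1-M livers. Colec10 had 5.15, 4.74 and 5.21 FPKM in iAsF1-M livers, against 5.43, 7.59 and 5.61 FPKM in conF1-M livers. In both genes the iAsF1-M livers were tightly grouped just below conF1-M 1 and conF1-M 3, and conF1-M 2 stood well above. The log2 fold changes were -0.26 for Colec11 and -0.25 for Colec10, each with an adjusted limma p of 0.62. Hand2, a transcription factor of quiescent stellate cells, had 2.63, 3.13 and 3.23 FPKM in iAsF1-M livers, against 3.28, 3.97 and 3.46 FPKM in conF1-M livers, with no overlap and a log2 fold change of -0.19 and an adjusted limma p of 0.62.

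The remaining 4 markers that were tested overlapped between groups. Ecm1, a secreted glycoprotein that in mouse liver holds TGF-β latent, was the most abundant marker. Its levels were 39.2, 52.5 and 54.0 FPKM in iAsF1-M livers, against 53.4, 69.1 and 53.7 FPKM in conF1-M livers. The low value of iAsF1-M 1 and the high value of conF1-M 2 set the groups apart, while the other 4 livers lay close together. Reln, the secreted glycoprotein reelin, had 2.67, 2.80 and 2.70 FPKM in iAsF1-M livers, against 3.27, 4.15 and 2.68 FPKM in conF1-M livers. Vim, the intermediate filament vimentin of mesenchymal cells at large, had 3.94, 5.70 and 5.60 FPKM in iAsF1-M livers, against 6.49, 6.65 and 5.21 FPKM in conF1-M livers. Hgf, the growth factor through which non-parenchymal cells act on hepatocytes, had 1.81, 1.40 and 1.52 FPKM in iAsF1-M livers, against 1.81, 2.07 and 1.23 FPKM in conF1-M livers. In each of these 3 genes conF1-M 2 was the highest liver and conF1-M 3 lay among or below the iAsF1-M livers. The log2 fold changes were -0.27 for Ecm1, -0.22 for Reln, -0.23 for Vim and -0.06 for Hgf, with adjusted limma p values between 0.62 and 0.89.

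The start regions of Ecm1 and Lrat are shown because these markers were the most abundant and the one with the largest fold change, and because no annotated exon lies in their windows. RefSeq sequences (GRCm38.p6) of the bases just before the start were found for 26 of the 36 genes, in 29 windows, and were searched on both strands for the AP-1 site TGANTCA, for TATAAA and for the CArG box bound by serum response factor. Ecm1 is at chr3:95739570-95739819 and Lrat at chr3:82903975-82904224, both on the minus strand, and capitals mark the AP-1 site and TATAAA.
Ecm1: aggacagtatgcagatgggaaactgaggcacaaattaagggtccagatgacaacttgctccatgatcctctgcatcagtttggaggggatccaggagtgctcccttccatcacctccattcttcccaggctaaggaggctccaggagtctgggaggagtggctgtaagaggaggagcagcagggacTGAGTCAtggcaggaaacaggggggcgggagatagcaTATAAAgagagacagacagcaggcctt
Lrat: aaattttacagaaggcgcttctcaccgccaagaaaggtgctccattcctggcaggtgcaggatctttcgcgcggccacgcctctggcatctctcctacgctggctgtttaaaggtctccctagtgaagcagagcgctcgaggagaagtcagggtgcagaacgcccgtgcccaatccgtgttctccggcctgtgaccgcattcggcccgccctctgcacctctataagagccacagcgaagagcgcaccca
Ecm1 held 1 AP-1 site, at -64 from its start, and 1 TATAAA, at -27. Lrat held none of the 3 motifs. An AP-1 site was found in 2 of the 29 windows (Ecm1 and Col6a1), and 6.73% of all 32536 windows of this length held one. TATAAA was found in 3 of the 29 (Ecm1, Vim and Col3a1), against 12.3% of all windows. The CArG box was found in 0 of the 29, against 1.48% of all windows. Annotated exons reach into the windows of Col6a1, Vim and some other genes, and Tagln had no window. These are matches of letters and were not read as binding.

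The other 4 stellate cell markers had a mean under 1 FPKM and were not tested. Des, the muscle intermediate filament desmin, had 0.80, 0.88 and 0.90 FPKM in iAsF1-M livers, against 1.07, 1.22 and 0.91 FPKM in conF1-M livers, with no overlap but only 0.01 FPKM between the closest livers. Pdgfrb, the PDGF receptor through which stellate cells proliferate, had 0.60, 0.69 and 0.76 FPKM in iAsF1-M livers, against 0.93, 1.13 and 0.54 FPKM in conF1-M livers. Ngfr, a neurotrophin receptor, had 0.44, 0.14 and 0.32 FPKM in iAsF1-M livers, against 0.54, 0.60 and 0.36 FPKM in conF1-M livers. The conF1-M livers spanned the iAsF1-M livers in Pdgfrb and overlapped them in Ngfr. Pdgfra, the other PDGF receptor, was the only marker of the 12 with a higher mean in iAsF1-M livers (0.62, 0.92 and 0.58 FPKM, against 0.56, 0.69 and 0.40 FPKM in conF1-M livers).

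**Figure D2:**
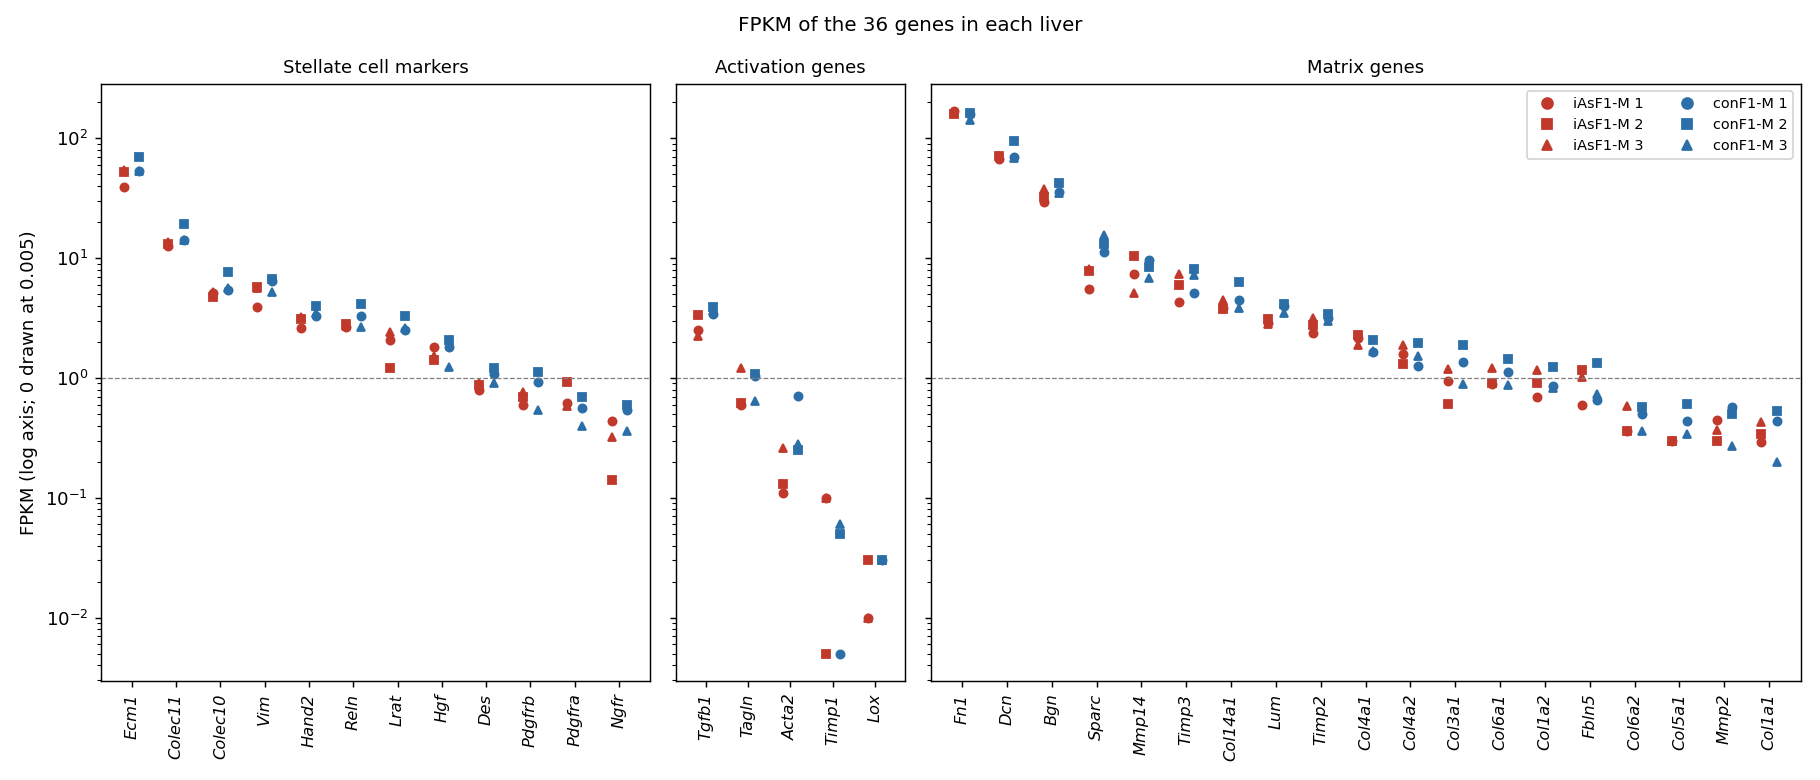
FPKM of each of the 36 genes in each liver on a log axis, with iAsF1-M livers (red) to the left of conF1-M livers (blue) within each gene, a symbol for each liver, and a dashed line at the mean of 1 FPKM needed for the test. Values of 0 are drawn at the foot of the panel. Fn1, Dcn and Ecm1 lie highest and Timp1 and Lox lowest, and the groups overlap for most genes.

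Of the 5 activation genes only Tgfb1 reached the level tested. Tgfb1 (ENSMUSG00000002603), the ligand that drives matrix production and that immune cells also make, had 2.52, 3.35 and 2.23 FPKM in iAsF1-M livers, against 3.41, 3.88 and 3.60 FPKM in conF1-M livers. The groups did not overlap, with iAsF1-M 2 just under the lowest conF1-M liver. Its log2 fold change was -0.33 ± 0.12 (SE), with an adjusted limma p of 0.59. Tgfb1 lies on the plus strand of chromosome 7 of GRCm38 (25687002 to 25705077).

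The markers of the contractile myofibroblast itself were scarce in every liver. Acta2, the smooth muscle actin by which activated stellate cells are recognised, had 0.11, 0.13 and 0.26 FPKM in iAsF1-M livers, against 0.71, 0.25 and 0.28 FPKM in conF1-M livers. The conF1-M 1 liver stood far above the rest, and the highest iAsF1-M liver lay between the other conF1-M livers. At the depth estimated from the steps between low values (20900000 to 23800000 fragments per liver), Acta2 rested on about 5.7 to 35.9 fragments. That depth is a rough estimate, and so are the fragments given here and below. Tagln, an actin-binding protein of smooth muscle, had 0.59, 0.62 and 1.22 FPKM in iAsF1-M livers, against 1.03, 1.07 and 0.64 FPKM in conF1-M livers. Tagln overlaps Pcsk7 on the opposite strand, and whether strand was used in counting is not given in the sources used here.

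Lox, the lysyl oxidase that cross-links collagen, and Timp1, the inhibitor of metalloproteinases that is induced in injured liver, were near the limit of detection. Lox had 0.01, 0.03 and 0.01 FPKM in iAsF1-M livers and 0.03 FPKM in each conF1-M liver, about 1.0 to 3.3 fragments. Timp1 had 0.10, 0 and 0.10 FPKM in iAsF1-M livers, against 0, 0.05 and 0.06 FPKM in conF1-M livers, about 0 to 2.1 fragments. No difference between groups was detectable for either gene at this depth.

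Of the 19 matrix genes, 13 were tested, with 10 log2 fold changes below 0, 3 above 0 and a median of -0.16. Sparc (ENSMUSG00000018593), a collagen-binding matricellular protein made by mesenchymal and endothelial cells, had the log2 fold change farthest from 0 among the 22 genes tested. Its levels were 5.51, 7.86 and 8.09 FPKM in iAsF1-M livers, against 11.2, 13.0 and 15.4 FPKM in conF1-M livers. Every iAsF1-M liver was below every conF1-M liver, with a gap between the groups of about the spread within them. Sparc averaged 7.15 ± 1.43 FPKM in iAsF1-M livers and 13.2 ± 2.12 FPKM in conF1-M livers (SD, n = 3 each), so that the iAsF1-M mean was 54.1% of the conF1-M mean. The log2 fold change was -0.81 ± 0.16 (SE), with an interval of -1.18 to -0.44, an unadjusted limma p of 0.0011 and an adjusted limma p of 0.40. Left out in turn, each liver gave a log2 fold change between -0.91 and -0.65, and the adjusted limma p lay between 0.065, without iAsF1-M 3, and 0.95, without conF1-M 1. Sparc lies on the minus strand of chromosome 11 of GRCm38 (55394500 to 55423183).

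Lum, Dcn and Bgn encode the small leucine-rich proteoglycans lumican, decorin and biglycan, which bind collagen fibrils. Lum (ENSMUSG00000036446) had 2.86, 3.09 and 2.82 FPKM in iAsF1-M livers, against 3.97, 4.16 and 3.47 FPKM in conF1-M livers. The groups did not overlap, and the log2 fold change was -0.31 ± 0.09 (SE), with an adjusted limma p of 0.57. Dcn, the neighbour of Lum on the plus strand of chromosome 10 of GRCm38 (Dcn 97479609 to 97518143, Lum 97565128 to 97572703), was far more abundant and did not show the same separation. Dcn had 67.4, 71.6 and 71.4 FPKM in iAsF1-M livers, against 69.0, 93.9 and 68.3 FPKM in conF1-M livers, so that only conF1-M 2 stood apart. Without conF1-M 2 the log2 fold change of Dcn was 0.03, against -0.12 with all livers. Bgn had 29.4, 32.1 and 37.7 FPKM in iAsF1-M livers, against 35.5, 42.2 and 34.6 FPKM in conF1-M livers, with overlap and a log2 fold change of -0.18 and an adjusted limma p of 0.67. Fbln5, a glycoprotein of elastic fibres, had 0.59, 1.17 and 1.02 FPKM in iAsF1-M livers, against 0.65, 1.34 and 0.74 FPKM in conF1-M livers, and was not tested.

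The fibrillar collagen genes were low in all livers. Col3a1, the type III chain, had 0.95, 0.61 and 1.19 FPKM in iAsF1-M livers, against 1.36, 1.88 and 0.89 FPKM in conF1-M livers, with a log2 fold change of -0.30 ± 0.18 (SE) and an adjusted limma p of 0.62. Col1a1 and Col1a2, the chains of type I collagen and the main product of activated stellate cells, did not reach the level tested. Col1a1 had 0.29, 0.34 and 0.43 FPKM in iAsF1-M livers, against 0.44, 0.53 and 0.20 FPKM in conF1-M livers. Col1a2 had 0.69, 0.91 and 1.16 FPKM in iAsF1-M livers, against 0.86, 1.23 and 0.83 FPKM in conF1-M livers. In all of these genes the conF1-M livers held the highest value, in conF1-M 2, and the groups overlapped. Col5a1, a type V chain that sets fibril width, had 0.30 FPKM in each iAsF1-M liver, against 0.44, 0.61 and 0.34 FPKM in conF1-M livers, with no overlap, and it too was not tested.

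Among the other collagens, Col14a1, a collagen found on the surface of fibrils, had 3.84, 3.79 and 4.45 FPKM in iAsF1-M livers, against 4.44, 6.35 and 3.85 FPKM in conF1-M livers, with a log2 fold change of -0.21 and an adjusted limma p of 0.69. Without conF1-M 2 the log2 fold change of Col14a1 was -0.03. Col6a1, a chain of microfibrillar type VI collagen, had 0.89, 0.91 and 1.20 FPKM in iAsF1-M livers, against 1.12, 1.45 and 0.87 FPKM in conF1-M livers, with a log2 fold change of -0.10. Col6a2, its partner chain, was not tested, with 0.36, 0.36 and 0.58 FPKM in iAsF1-M livers, against 0.50, 0.57 and 0.36 FPKM in conF1-M livers. In these genes the groups overlapped, with iAsF1-M 3 the highest of its group each time.

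Col4a1 and Col4a2, which encode the paired chains of basement membrane type IV collagen, were with Fn1 the only genes tested with a log2 fold change above 0. Col4a1 had 2.17, 2.28 and 1.87 FPKM in iAsF1-M livers, against 1.64, 2.06 and 1.68 FPKM in conF1-M livers, with a log2 fold change of 0.15 ± 0.10 (SE) and an adjusted limma p of 0.65. Col4a2 had 1.58, 1.31 and 1.87 FPKM in iAsF1-M livers, against 1.27, 1.95 and 1.53 FPKM in conF1-M livers, with a log2 fold change of 0.0046 ± 0.13 (SE). The groups overlapped in both genes. They lie head to head on chromosome 8 of GRCm38, Col4a1 on the minus strand (11198423 to 11312826) and Col4a2 on the plus strand (11312805 to 11449287), and share 22 bases at their starts. Fn1, fibronectin, which hepatocytes secrete into plasma and which was the most abundant of the 36 genes, had 169, 158 and 166 FPKM in iAsF1-M livers, against 160, 162 and 141 FPKM in conF1-M livers. Its log2 fold change was 0.09 ± 0.10 (SE), with an interval of -0.13 to 0.32 and an adjusted limma p of 0.77.

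The genes of matrix cleavage and its inhibition overlapped between groups. Timp2, an inhibitor that also takes part in the activation of pro-MMP2, had 2.36, 2.79 and 3.16 FPKM in iAsF1-M livers, against 3.19, 3.44 and 2.97 FPKM in conF1-M livers, with a log2 fold change of -0.16. Timp3, the inhibitor that stays bound to the matrix, had 4.27, 5.92 and 7.32 FPKM in iAsF1-M livers, against 5.08, 8.15 and 7.20 FPKM in conF1-M livers, with a log2 fold change of -0.20, which was -0.02 without iAsF1-M 1 and -0.07 without conF1-M 2. Timp2 overlaps Cep295nl on the same strand and Timp3 overlaps Syn3 on the opposite strand. Mmp14, the membrane-bound protease that activates MMP2, had 7.43, 10.5 and 5.09 FPKM in iAsF1-M livers, against 9.71, 8.47 and 6.80 FPKM in conF1-M livers, so that the highest and the lowest liver were both iAsF1-M. Mmp2, the gelatinase itself, had 0.45, 0.30 and 0.37 FPKM in iAsF1-M livers, against 0.57, 0.50 and 0.27 FPKM in conF1-M livers, and was not tested. The adjusted limma p was 0.65 for Timp2, 0.77 for Timp3 and 0.85 for Mmp14.

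The SD was larger among conF1-M livers than among iAsF1-M livers for 16 of the 22 genes tested, and 1 conF1-M liver held most of the highest values. This liver, conF1-M 2, was the highest of the 6 livers for 18 of the 22 genes tested (81.8%), and for 18.4% of all genes tested. These were all 8 stellate cell markers, Tgfb1 and 9 of the 13 matrix genes. iAsF1-M 1 was the lowest of the 6 livers for 10 of the 22 (45.5%), and for 32.9% of all genes tested. Without conF1-M 2, the log2 fold change was below 0 for 16 of the 22 and for 64.7% of all genes tested, and the median over the 22 was -0.12 and over the 8 stellate cell markers -0.13. Without conF1-M 2, 7 of the 22 had no overlap, against 16.0% of all genes tested, and no gene of the 22 was called. Sparc was not among the genes highest in conF1-M 2, and its log2 fold change without that liver was -0.81. The part of conF1-M 2 in the other differences was not tested further.

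**Figure D3:**
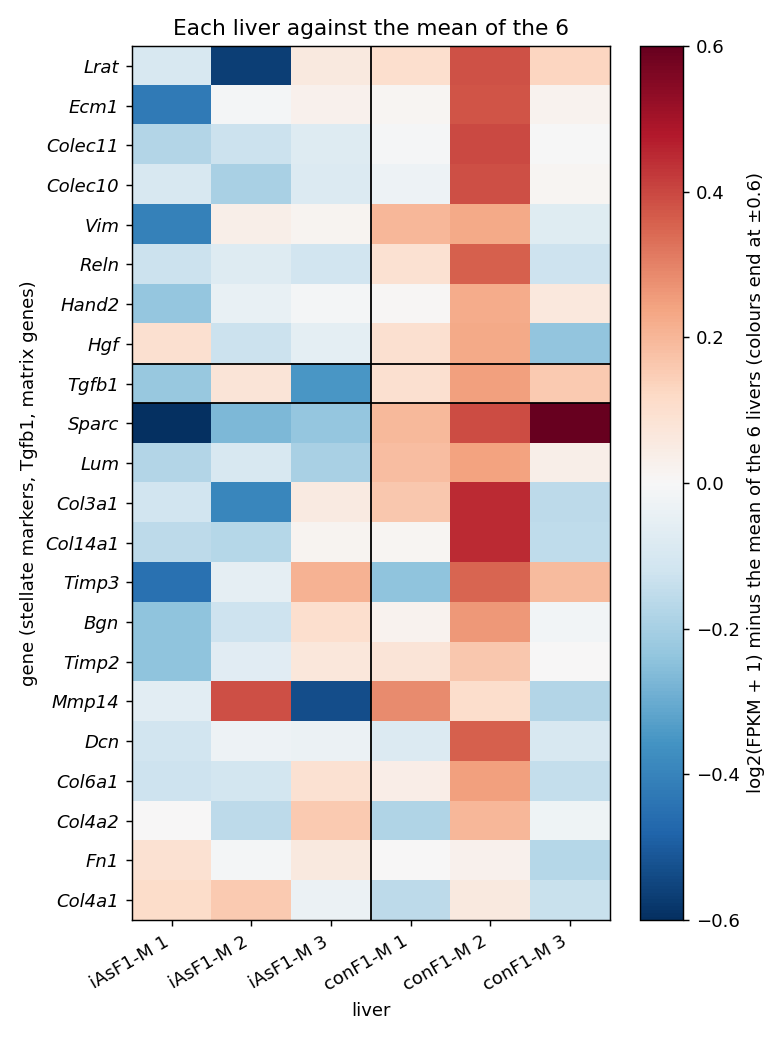
Difference of log2(FPKM + 1) of each of the 22 genes tested from its mean over the 6 livers, with iAsF1-M livers in the left columns and conF1-M livers in the right columns. The column of conF1-M 2 is above the mean in every row. Sparc, Lum and Hand2 are above the mean in every conF1-M liver and below it in every iAsF1-M liver.

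The summed level of the 12 stellate cell markers was 72.5, 87.1 and 90.8 FPKM in iAsF1-M livers, against 93.5, 119.6 and 90.9 FPKM in conF1-M livers. The groups did not overlap, but iAsF1-M 3 and conF1-M 3 were within 1 FPKM, and Ecm1 made up most of each sum. The summed level of the 19 matrix genes was 300.8, 304.1 and 316.0 FPKM in iAsF1-M livers, against 310.6, 354.0 and 291.3 FPKM in conF1-M livers, so that the conF1-M livers spanned all 3 iAsF1-M livers. Fn1 and Dcn made up most of that sum.

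Other genes of these pathways were described from 7 lists, of which no gene was called by limma at an adjusted p of 0.05. Of the 109 genes of these lists that were tested, 15 were lower in iAsF1-M livers at an unadjusted limma p of 0.05, where the share of all genes tested was 6.75%, and 0 were higher, where it was 1.42%. The counts below 0 that follow stand against 69.6% of all genes tested, and the medians against -0.07. Of 17 further stellate cell genes tested, 15 had a log2 fold change below 0, with a median of -0.14, and 3 of them had an unadjusted limma p under 0.05. Those 3 were Rgs5, a regulator of G protein signalling in pericytes, Pth1r, a parathyroid hormone receptor, and Lhx2, a transcription factor that restrains stellate cell activation in mice. Rgs5 had 7.80, 8.01 and 9.96 FPKM in iAsF1-M livers, against 10.5, 12.2 and 11.6 FPKM in conF1-M livers. Pth1r had 1.80, 2.05 and 2.01 FPKM in iAsF1-M livers, against 3.65, 3.00 and 2.28 FPKM in conF1-M livers. Lhx2 had 0.95, 0.85 and 1.21 FPKM in iAsF1-M livers, against 1.28, 1.59 and 1.63 FPKM in conF1-M livers. In none of the 3 did the groups overlap, and the adjusted limma p was 0.58 for each. All iAsF1-M livers lay below all conF1-M livers in 4 of the 17, against 11.8% of all genes tested.

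In TGF-β signalling, 17 of 20 genes tested had a log2 fold change below 0, with a median of -0.11. Ltbp4, a latent TGF-β binding protein, averaged 2.84 ± 0.73 FPKM in iAsF1-M livers and 4.21 ± 0.44 FPKM in conF1-M livers. Bmp6, the endothelial ligand that induces hepcidin, averaged 1.29 ± 0.19 FPKM in iAsF1-M livers and 1.84 ± 0.23 FPKM in conF1-M livers (SD, n = 3 each for both genes). Smad7, the inhibitory SMAD, had 0.60, 0.96 and 1.32 FPKM in iAsF1-M livers, against 2.08, 1.21 and 2.11 FPKM in conF1-M livers, with overlap. The adjusted limma p was 0.58 for Ltbp4 and 0.59 for both Bmp6 and Smad7. In PDGF signalling 6 of 7 genes tested had a log2 fold change below 0, with a median of -0.03, close to 0. The smallest p in that list belonged to Pik3r1, the regulatory subunit of PI3-kinase, with a log2 fold change of -0.28, while the adaptor Grb2 had -0.08 and the exchange factor Sos1 0.04.

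Among enzymes and chaperones of collagen synthesis, 8 of 13 tested had a log2 fold change below 0, with a median of -0.02. Crtap, a part of the prolyl 3-hydroxylation complex, had 1.25, 1.40 and 1.39 FPKM in iAsF1-M livers, against 1.71, 1.72 and 1.91 FPKM in conF1-M livers, with no overlap and an adjusted limma p of 0.59. The log2 fold changes of P4ha2, a prolyl 4-hydroxylase subunit, and Serpinh1, the collagen chaperone HSP47, were -0.45 and -0.29, with overlap in both. Of other collagens and matrix proteins, 17 of 20 tested had a log2 fold change below 0, with a median of -0.16. Col5a3, another type V chain, had 3.33, 1.99 and 3.55 FPKM in iAsF1-M livers, against 7.20, 5.76 and 3.38 FPKM in conF1-M livers. The conF1-M 3 liver lay among the iAsF1-M livers, and the log2 fold change was -0.68 ± 0.25 (SE), with an adjusted limma p of 0.59. The log2 fold changes of Lamc1, the laminin γ1 chain, and Agrn, the proteoglycan agrin, were -0.23 and -0.26. Fbn2, fibrillin-2, was listed at 0 in every liver.

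For proteases and matrix receptors, 9 of 13 tested had a log2 fold change below 0, and their median of -0.07 was that of all genes tested. The smallest p values there belonged to Adam10, a sheddase, and to the metalloproteinases Mmp15 and Mmp19, with log2 fold changes of -0.38, -0.26 and -0.22 and adjusted limma p values of 0.62 to 0.71. In the handling of retinoids, to which Lrat belongs, 17 of 19 further genes tested had a log2 fold change below 0, with a median of -0.19. Rarg, a retinoic acid receptor, had 1.22, 1.14 and 1.52 FPKM in iAsF1-M livers, against 1.83, 2.04 and 1.75 FPKM in conF1-M livers. Rara, another receptor for retinoic acid, had 3.48, 4.77 and 5.45 FPKM in iAsF1-M livers, against 6.47, 5.80 and 5.73 FPKM in conF1-M livers. Neither receptor overlapped between groups, and the adjusted limma p was 0.58 for Rarg and 0.59 for Rara. All iAsF1-M livers lay below all conF1-M livers in 2 of the 19, against 11.8% of all genes tested. Cyp26a1, the retinoic acid hydroxylase and a target of these receptors, had 1.02, 0.69 and 2.16 FPKM in iAsF1-M livers, against 2.74, 1.76 and 2.00 FPKM in conF1-M livers, with overlap.

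Markers of other liver cells were read beside these values. The sinusoidal endothelium, which also expresses Sparc, Col4a1 and Vim, had 15 of its 16 markers with a log2 fold change below 0, against 69.6% of all genes tested, and a median of -0.27, against -0.07. In 9 of the 16 all iAsF1-M livers lay below all conF1-M livers, against 11.8% of all genes tested. By limma 0 of the 16 were called, and 8 were lower at an unadjusted p of 0.05, against 6.75% of all genes tested. The summed level of the 16 markers was 78.5 to 94.4 FPKM in iAsF1-M livers, against 105.0 to 131.4 FPKM in conF1-M livers, and no marker was at 0. Dnase1l3, a secreted nuclease, averaged 8.60 ± 0.91 FPKM in iAsF1-M livers and 13.0 ± 1.07 FPKM in conF1-M livers (SD, n = 3 each), with an adjusted limma p of 0.36. The log2 fold changes of Kdr, the VEGF receptor, and Clec4g, a lectin of sinusoidal endothelium, were -0.40 and -0.44. The part of endothelial RNA in the values of the 36 genes was not tested.

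The 14 markers of Kupffer cells and other macrophages had summed levels of 206.1, 290.8 and 116.0 FPKM in iAsF1-M livers, against 213.1, 201 and 186.1 FPKM in conF1-M livers. In the same livers Tgfb1 had 2.52, 3.35 and 2.23 FPKM, against 3.41, 3.88 and 3.60 FPKM. Tgfb1 followed the order of the sums among iAsF1-M livers. Among conF1-M livers it did not, as conF1-M 1 had the highest sum and the lowest Tgfb1 of its group. The part of macrophage RNA in the values of Tgfb1 was not tested. Of the 14 markers, 9 had a log2 fold change below 0, against 69.6% of all genes tested, and 5 above 0, with a median of -0.07. By limma 0 were called, and 1, Clec4f, had an unadjusted p under 0.05. Its log2 fold change was -0.46, with an adjusted limma p of 0.58. Marco and Folr2 had the next smallest p values, with log2 fold changes of 1.84 and -0.40. The adjusted limma p was 0.62 for each. Marco had 10.2, 28.4 and 0.82 FPKM in iAsF1-M livers, against 1.28, 1.60 and 1.21 FPKM in conF1-M livers, with overlap. Of the 9 hepatocyte markers measured, 3 had a log2 fold change below 0, against 69.6% of all genes tested, and 6 above 0. Their median was 0.05, and 0 were called by limma. In single livers, their median difference of log2(FPKM + 1) from the 6-liver mean was -0.26, 0.32 and -0.03 in iAsF1-M livers. In conF1-M livers it was -0.08, -0.04 and 0.04. Markers of portal fibroblasts and mesothelium were at most 1.57 FPKM, with 12 of 13 under a mean of 1 FPKM, and their sums were 2.50 to 4.97 FPKM in iAsF1-M livers, against 3.02 to 5.02 FPKM in conF1-M livers. The 10 smooth muscle markers, which include Des, had sums of 12.1 to 17.1 FPKM in iAsF1-M livers, against 13.5 to 16.8 FPKM in conF1-M livers. Of these 10, 8 had a mean under 1 FPKM. Markers of cholangiocytes (2 of 8), lymphocytes (2 of 12) and neutrophils (1 of 7) had few genes at the level tested. Of 6 erythroid markers 5 were tested, all 5 with a log2 fold change below 0, against 69.6% of all genes tested, and a median of -0.18. Sums of the 6 overlapped between groups, with 1418, 940 and 1584 FPKM in iAsF1-M livers, against 2514, 890 and 1381 FPKM in conF1-M livers. Of the cholangiocyte, lymphocyte, neutrophil and erythroid markers 0 were called by limma. Among them 1 had an unadjusted limma p under 0.05 (Cd79a of B cells, lower in iAsF1-M livers, with a log2 fold change of -0.43).

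**Figure D4:**
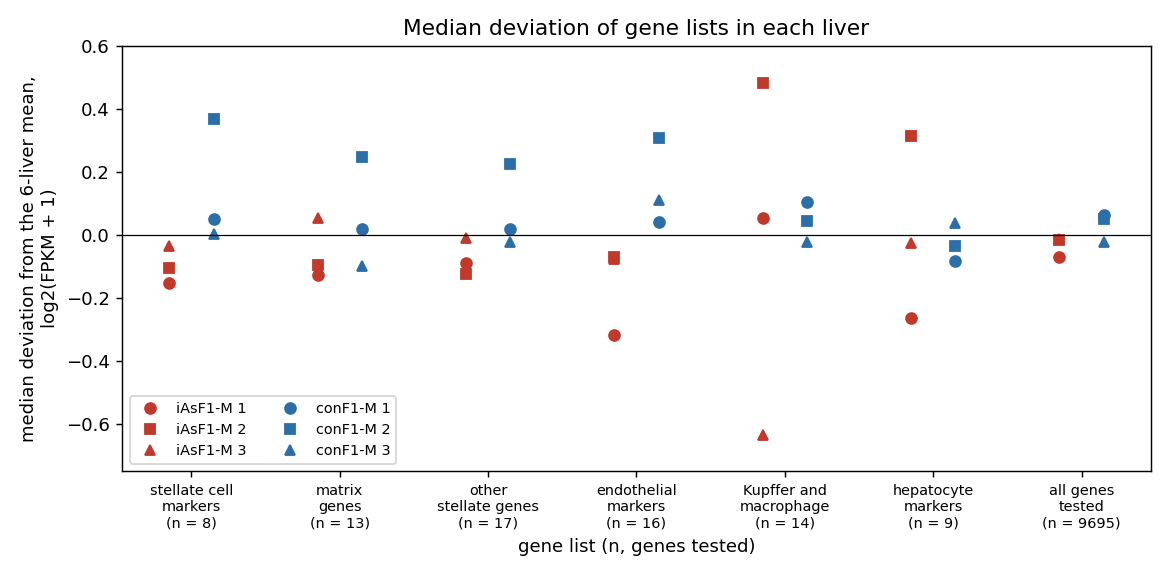
Median difference of log2(FPKM + 1) from the mean over the 6 livers, for each gene list in each liver, with iAsF1-M livers to the left of conF1-M livers. For the stellate cell markers the medians are -0.15, -0.10 and -0.04 in iAsF1-M livers and 0.05, 0.37 and 0.00 in conF1-M livers, and conF1-M 2 is also the highest liver for endothelial markers, at 0.31.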

How the data were processed

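Liver RNA of 3 iAsF1-M and 3 conF1-M mice was analysed, with groups from the sample labels. The authors extracted total RNA with Trizol, made TruSeq libraries, sequenced paired ends, filtered the reads and aligned them to GRCm38 with HISAT2. The deposited values are FPKM rounded to 2 decimals, and the program and annotation behind them are not given in the sources used here. Of 16743 identifiers, 16 stood on 2 lines and were left out, and 16706 of the 16727 kept had a symbol. Positions and overlaps are from GENCODE (GRCm38).

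The groups were compared with lmFit and eBayes (with a variance trend) of limma 3.58.1, run in R 4.3.3, on log2(FPKM + 1), which understates changes of low genes. Genes averaging at least 1 FPKM were tested. P values were two-sided and adjusted by Benjamini and Hochberg over all 9695 genes tested. Count tests were not used, since the deposited values are FPKM. Turned back into fragments, only 48.6% to 62.1% of low values came out whole (tolerance 0.15). Gene lengths for this were taken as the union of annotated exons. Chance gives 30% at a single depth and more at the depth picked as best, and that larger share was not estimated. The test was checked on simulated data. Figures were drawn with matplotlib 3.10.9 in Python 3.11.15. The 36 genes and all lists were chosen with earlier results of these data known, and no p was computed over a list. The text names all 36, up to 3 genes tested with the smallest p from each list, and markers at 0 in every liver. Alternatives were other pseudocounts, filters, scalings, variance models, library weights, a replicate block, a threshold of 0.1 and leaving out each liver. The female libraries were not analysed here.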

Additional observations from a re-analysis of the deposited data

How the results depend on the processing

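None of the 22 genes tested was called under any alternative, and 397 of 406 values of single genes kept their direction. Many of these values could not turn. The filters, variance models, replicate block and threshold of 0.1 leave the log2 fold change of a gene as it was. The 6 genes past the threshold among all genes became 3 without a filter and ranged from 3 to 72 when each liver was left out, with 3 when conF1-M 1 or conF1-M 2 was dropped and 72 when iAsF1-M 3 was. The median of all genes moved to -0.0044 with quantile normalization, -0.0026 with TMM-like scaling and -0.0038 with median of ratios scaling, against -0.07 as given, and the share of all genes below 0 moved to between 51.0% and 51.3%. Under these scalings the median of the 22 genes was -0.14 to -0.15, that of the stellate cell markers -0.18 and that of the matrix genes -0.10 to -0.11. When each liver was left out, the median of the 22 ranged from -0.28 to -0.12, the highest being -0.12 when conF1-M 2 was dropped and -0.13 when iAsF1-M 1 was dropped. The matrix median in these fits was -0.07 and -0.09.

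Directions turned for 5 genes near 0. Hgf was 0.0012 with quantile normalization. With each liver left out in turn, Hgf ranged from -0.19 to 0.039, Dcn from -0.20 to 0.030 and Col6a1 from -0.19 to 0.0029, each above 0 when conF1-M 2 was left out. Mmp14 likewise ranged from -0.37 to 0.090, above 0 when iAsF1-M 3 was left out. Col4a2 was -0.069 with library weights and ranged from -0.084 to 0.10 over the livers left out, below 0 for conF1-M 1, conF1-M 3 (-0.0063) and iAsF1-M 3 (-0.073). The cause was not tested. With a mean of at least 5 FPKM, 10 genes were left and Tgfb1 was not tested.

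Replicate numbers were not taken to pair the livers. After centring on group means, same-numbered livers correlated at 0.17, -0.10 and -0.02, and so few values cannot show whether a pairing exists. With the replicate block 5 genes in all passed, none of the 22 among them, and the adjusted limma p of Sparc was 0.12, in a range of 0.065 to 0.95 over all alternatives. Precision is limited by 3 livers a group and, for genes such as Timp1, Lox and Acta2, by few fragments.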
